A study of Mus musculus with 32 samples.

Results

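Regulatory T cells (Tregs) depend on the transcription factor Foxp3 and hold immune responses in check. The comparison described here is between Tregs cultured for 36 h with TL1A, the ligand of death receptor 3 (DR3), and Tregs cultured for 36 h without an agonist. Its members are 6 of the 32 libraries of the study, chosen by their titles, 3 with the DR3 agonist and 3 controls. The first group was Foxp3-GFP+ Tregs from C57BL/6 mice, 2.5 months old, with a Foxp3-IRES-GFP knock-in allele, kept on plates coated with antibodies to CD3 and CD28 in medium with mouse IL-2 at 10 ng/ml and given TL1A at 12 ng/ml. The control group was the same kind of cell with the same antibodies, IL-2 and time, and no agonist. Both groups therefore carry the reporter allele and both were stimulated, so the comparison is of added DR3 ligand on activated cells and not of activated with unstimulated cells. The study also held resting Tregs, cultures of 18 h, and cultures with agonists of TNFR2, 4-1BB and OX40. The labels do not say whether replicates came from separate mice or cultures, so p-values measure the spread between these libraries, which may be technical.

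DR3 is encoded by Tnfrsf25, a death-domain member of the TNF receptor superfamily that T cells carry. Binding of TL1A, encoded by Tnfsf15, recruits the adaptor TRADD and through it TRAF2, the cellular inhibitors of apoptosis (cIAPs) and RIPK1, which leads to activation of NF-kB and MAP kinases, or through caspase 8 to cell death. NF-kB in turn switches on its own inhibitors, such as IkB alpha and A20. In mice, DR3 agonists are known as a costimulus that makes Tregs multiply.

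Promoters are printed for 5 genes that recur below. Scin, Igfbp4 and Nfkb2 were chosen by rule, from those with the smallest p values among the most changed genes and the NF-kB genes called. The rule also chose Mreg and Sema4a, whose windows held no match to the motif below and are not printed. The promoters of the NF-kB feedback genes Nfkbia and Tnip1 were added after their values were seen. They were added to show the motif in genes that NF-kB is known to control. Each runs 5′ to 3′ on the strand of the gene, from 250 bases before to 50 bases after the start that RefSeq gives on GRCm38.p6. Capitals mark every match, on either strand, to an NF-kB motif read as GGG, any 2 bases, TT, any base and CC. Matches can overlap, as they do in Nfkb2.

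Nfkb2 (chr19:46304487-46304786, plus strand): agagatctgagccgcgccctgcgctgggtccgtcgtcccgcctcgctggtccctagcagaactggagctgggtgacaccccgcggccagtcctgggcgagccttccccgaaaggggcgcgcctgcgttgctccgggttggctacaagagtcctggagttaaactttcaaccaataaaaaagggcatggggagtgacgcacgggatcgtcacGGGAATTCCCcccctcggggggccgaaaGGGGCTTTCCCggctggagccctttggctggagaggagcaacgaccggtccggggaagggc
Nfkbia (chr12:55492598-55492897, minus strand): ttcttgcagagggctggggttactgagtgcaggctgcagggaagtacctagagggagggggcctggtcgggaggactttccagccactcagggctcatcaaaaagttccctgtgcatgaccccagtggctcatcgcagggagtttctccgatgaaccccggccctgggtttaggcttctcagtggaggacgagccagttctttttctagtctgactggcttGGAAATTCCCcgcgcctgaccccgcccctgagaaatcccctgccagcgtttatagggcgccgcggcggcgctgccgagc
Tnip1 (chr11:54962891-54963190, minus strand): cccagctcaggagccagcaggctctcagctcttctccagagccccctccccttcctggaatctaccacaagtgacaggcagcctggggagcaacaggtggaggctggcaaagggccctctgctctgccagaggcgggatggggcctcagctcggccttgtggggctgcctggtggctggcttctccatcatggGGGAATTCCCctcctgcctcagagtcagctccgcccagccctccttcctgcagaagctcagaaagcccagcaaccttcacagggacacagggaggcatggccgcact
Scin (chr12:40134179-40134478, minus strand): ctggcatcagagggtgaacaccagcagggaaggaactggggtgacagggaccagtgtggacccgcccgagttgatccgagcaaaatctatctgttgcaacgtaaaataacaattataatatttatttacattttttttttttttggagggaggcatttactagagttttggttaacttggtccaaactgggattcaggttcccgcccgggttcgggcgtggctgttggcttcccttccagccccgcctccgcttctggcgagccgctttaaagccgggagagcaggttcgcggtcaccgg
Igfbp4 (chr11:99040994-99041293, plus strand): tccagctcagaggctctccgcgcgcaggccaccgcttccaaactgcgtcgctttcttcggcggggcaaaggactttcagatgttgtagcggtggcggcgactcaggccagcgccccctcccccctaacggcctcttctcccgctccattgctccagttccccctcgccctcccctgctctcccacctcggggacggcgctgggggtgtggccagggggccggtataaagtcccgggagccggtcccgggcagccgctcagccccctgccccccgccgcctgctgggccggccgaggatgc

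Nfkb2 held 3 matches, Nfkbia and Tnip1 held 1 each, and the windows of Scin and Igfbp4 held none. Among NF-kB pathway genes not printed, the windows of Nfkbid, Nfkbie, Nfkbib, Tnip2 and Rela held none either. The motif stood in 4.71% of the 27025 promoters in the table and in 5.55% of the 10008 that belong to tested genes. It stood in 64 of 766 promoters (8.36%) of genes that were higher with TL1A at 36 h, and in 32 of 685 (4.67%) of genes that were lower. Of the 10 promoters of NF-kB pathway genes that were higher, 6 held it. A wider form, GGG, any 5 bases and CC, separated the genes less: it stood in 71.8% of promoters of higher genes, in 68.6% of those of lower genes and in 67.5% of those of tested genes. A match is a description of letters and not of binding.

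Each library holds an expected count per gene, with totals of 30697567, 20298425 and 18486603 in the DR3 agonist libraries and 21829871, 22493919 and 24319121 in the control libraries. Levels below are CPM, counts relative to the library total as scaled by TMM. A ± after a level is the standard deviation of the n = 3 libraries in each group. Fold changes are given as log2 of DR3 agonist over control with the standard error. That error was derived from the test statistic of a fit over all 32 libraries, whose groups share the estimate of spread. DR3 agonist replicate 3 stood apart from the other libraries of these groups in its reads at the ribosomal RNA locus. The ribosomal RNA locus transcript Gm42418 took 2800, 1207 and 14830 CPM in the DR3 agonist libraries, against 3286, 747.4 and 848.5 CPM in controls. The chi-square per degree of freedom between DR3 agonist replicates was 3.14 without replicate 3 and 20.2 or 21.4 with it, against 4.7 to 6.98 among controls. That chi-square sums over all tested genes, this locus among them, and the part of the locus in it was not tested. The first principal component of the 6 libraries, with 35% of the variance, placed the DR3 agonist libraries at 13.91, 17.87 and 20.41 and the controls at −17.89, −19.66 and −14.64. The 8 Treg markers summed to 5030 to 5109 CPM with the DR3 agonist and 5283 to 5415 CPM in controls, with none at 0. Il2ra alone had a mean of 2596 CPM with the DR3 agonist and 2885 CPM in controls. The means of Ctla4, Cd3e, Cd3g and Cd4 were also lower with the DR3 agonist, and those of Foxp3, Ikzf2 and Tnfrsf18 were higher.

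TL1A changed many genes at 36 h, most of them by little. Of 14313 genes tested, 1912 (13.4%) passed an adjusted p of 0.05 in edgeR's quasi-likelihood test with Benjamini-Hochberg adjustment. Of these, 997 genes (6.97%) were higher and 915 (6.39%) lower with the DR3 agonist, and the median over all genes was −0.0031 on the log2 scale. The median size among the called genes was 0.25 on the log2 scale, and 1202 of them (62.9%) differed by less than 1.25-fold. Only 127 genes (0.887%) reached 2-fold, 85 higher (0.594%) and 42 lower (0.293%), and 68 and 35 of these were under 5 CPM in both groups. The count of called genes was 1214 without control replicate 2 and 1224 without DR3 agonist replicate 1, and it was 1438 when libraries over 10000 CPM at the ribosomal RNA locus, DR3 agonist replicate 3 among them, were left out of the fit. In the plot of all genes most called genes lie close to 0, with Scin far above the called genes near its level.

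**Figure D1:**
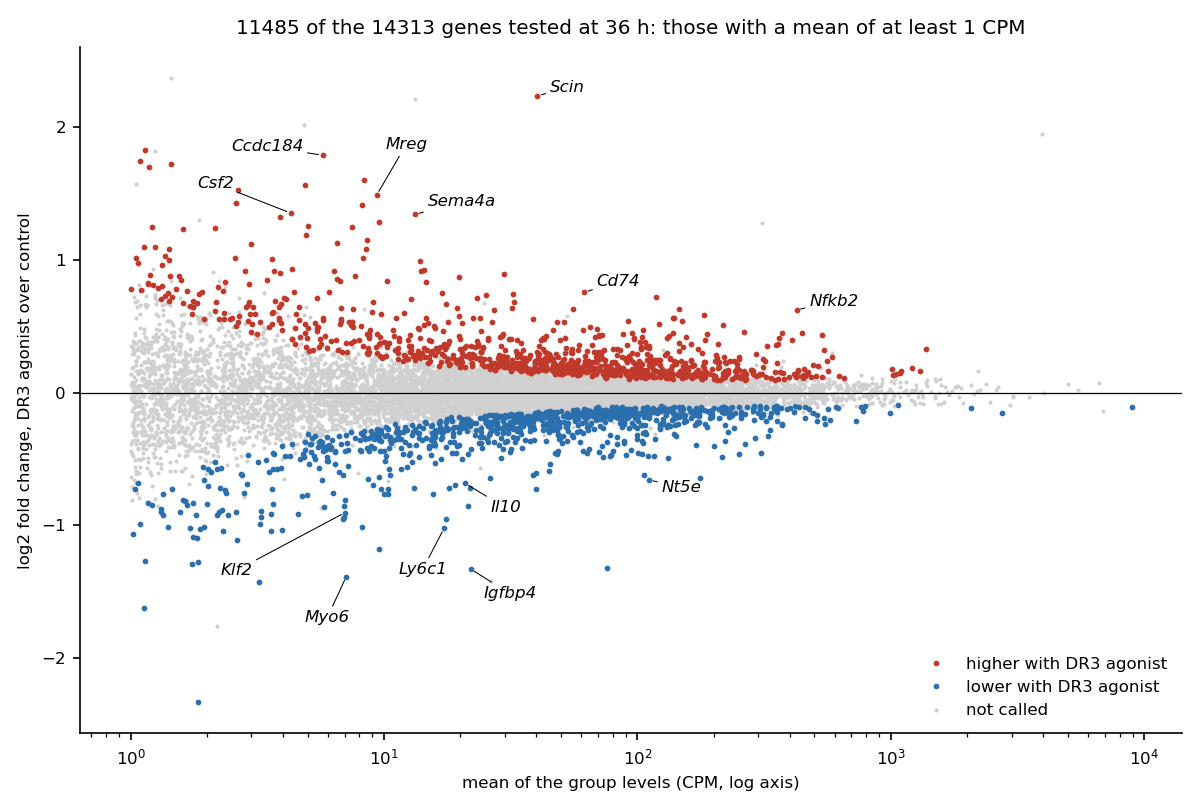
Log2 fold change at 36 h, DR3 agonist over control, against the mean of the group levels in CPM on a log axis, for the 11485 of 14313 tested genes with a mean of at least 1 CPM. Each point is a gene, red where it was called higher, blue where it was called lower and grey where it was not called. Scin at 2.24 lies highest among the labelled genes, and most called genes lie close to the line.

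The largest rise among called genes of at least 5 CPM whose libraries did not overlap was that of Scin, which encodes the calcium-dependent actin-severing protein adseverin (ENSMUSG00000002565, chromosome 12, 40059769 to 40134228 in mm10, as for all positions here). Scin stood at 65.97, 67.8 and 66 CPM in the DR3 agonist libraries, against 14.01, 13.6 and 14.7 CPM in controls. Every TL1A library lay far above every control library, and the replicates of each group were close together. Libraries of the groups did not overlap for 31.2% of all genes tested, so a lack of overlap alone is common. The log2 fold change was 2.24 ± 0.06 (adjusted p 1.3e-29).

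Sema4a, a semaphorin that binds neuropilin-1 on mouse Tregs (ENSMUSG00000028064, chromosome 3, 88435959 to 88461182), had 18.5, 19.5 and 19.1 CPM with the DR3 agonist and 7.47, 6.63 and 8.30 CPM in controls. The groups did not overlap, and the log2 fold change was 1.34 ± 0.09 (adjusted p 3.77e-17). Mreg, which encodes the melanosome transport protein melanoregulin, had 13.9, 13.7 and 13.9 CPM with the DR3 agonist, against 5.24, 4.93 and 4.60 CPM in controls, a log2 fold change of 1.49 ± 0.09. Slc2a6, a lysosomal hexose transporter, had 13.8, 13.8 and 13.03 CPM with the DR3 agonist and 5.66, 4.93 and 6.08 CPM in controls, a log2 fold change of 1.28 ± 0.10. In these 3 genes every TL1A library lay well above every control library.

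The other genes among the 12 largest rises were at lower levels, up to a mean of 12.6 CPM with TL1A. They included Ccdc184, a coiled-coil gene (8.88 ± 0.445 CPM with the DR3 agonist against 2.57 ± 0.250 CPM in controls, log2 fold change 1.79 ± 0.13), and Cercam, a cell adhesion gene (7.29 ± 0.398 against 2.46 ± 0.347 CPM, 1.56 ± 0.12). Sp6, a zinc finger factor of the Sp family, had 11.9 ± 0.560 CPM with the DR3 agonist and 4.45 ± 0.363 CPM in controls, a log2 fold change of 1.41 ± 0.10. Casz1, another zinc finger factor, rose by 1.25 ± 0.11, the potassium channel gene Kcnh2 by 1.32 ± 0.14 and Fam129c by 1.26 ± 0.14 on the log2 scale. Csf2 is described with the cytokines below. Rpph1, the RNA of ribonuclease P, rose by 1.60 ± 0.15, but it overlaps Ccnb1ip1. The library kit does not mark strand, so reads of overlapping genes cannot be told apart; among the genes named here this also touches, for example, Nfkb2 (Psd), Jun (Junos), Cxcr6 (Fyco1), Cxcl10 (Art3), Vsir (Cdh23), Fgl2 (Ccdc146), Il2 (Adad1), Tnfrsf9 (Camta1), Foxp3 (Ccdc22) and Eomes (Gm33460). Fam129c, Tgm2, Mical2, Nfkbib, Ripk1, Otulin, Ctsw, Ccnd3, Cdc20, Rrp9, Ndufa2, Ndufs3, Acsl3, Ncf1 and Fn1 overlap other genes as well, and further genes named here overlap predicted genes or small RNAs.

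**Figure D2:**
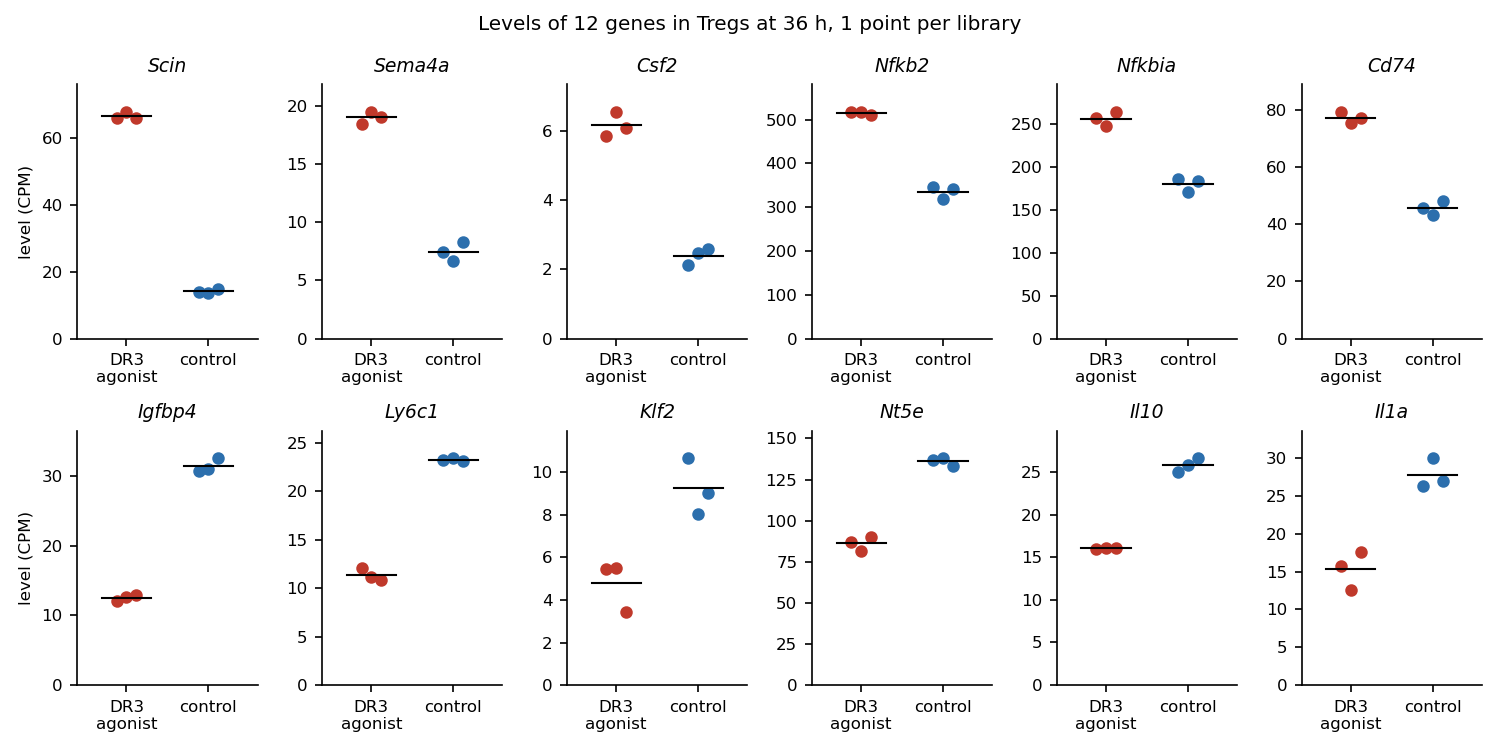
Levels in CPM of 12 genes in each of the 3 DR3 agonist libraries (red, left) and the 3 control libraries (blue, right) at 36 h; black lines are group means and each axis starts at 0. The groups do not overlap in any of the 12 panels, from Scin at about 66.6 CPM with the DR3 agonist and 14.1 CPM in controls to Igfbp4 at 12.6 CPM with the DR3 agonist and 31.5 CPM in controls.

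Among the falls, Igfbp4, which binds insulin-like growth factors (ENSMUSG00000017493, chromosome 11, 99041244 to 99054392), had 12.1, 12.7 and 12.9 CPM with the DR3 agonist and 30.8, 31.1 and 32.6 CPM in controls, a log2 fold change of −1.33 ± 0.07 (adjusted p 4.83e-21). Its groups did not overlap and lay far apart.

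Klf2, a transcription factor of T cell quiescence and migration, had 5.46, 5.52 and 3.44 CPM with the DR3 agonist, against 10.7, 8.07 and 9.04 CPM in controls. DR3 agonist replicate 3 was the lowest of the 6, no library of a group reached the other group, and the log2 fold change was −0.91 ± 0.14 (adjusted p 1.42e-05). Ly6c1, a surface antigen of lymphocytes and monocytes, had 11.3 ± 0.683 CPM with the DR3 agonist and 23.2 ± 0.156 CPM in controls (log2 fold change −1.02 ± 0.08), and Trib2, a pseudokinase, 11.9 ± 0.525 and 23.4 ± 0.542 CPM (−0.96 ± 0.06). Smaller in level were the motor protein gene Myo6 (3.89 ± 0.316 CPM with the DR3 agonist against 10.3 ± 1.10 CPM in controls, −1.39 ± 0.12) and the purine enzyme gene Xdh (5.38 ± 0.463 against 10.9 ± 1.44 CPM, −1.01 ± 0.14). Mical2, Tgm2, Emp1 and Tmem71 were also among the 12 largest falls, with log2 fold changes of −1.04, −0.96, −0.94 and −0.91.

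DR3 itself was expressed at 36 h and did not pass the test. Tnfrsf25 (ENSMUSG00000024793, chromosome 4, 152115934 to 152120119) had 18.9, 17.5 and 17.4 CPM with the DR3 agonist, against 17.2, 16.3 and 16.6 CPM in controls, a log2 fold change of 0.11 ± 0.08 (adjusted p 0.402). The libraries of the groups did not overlap, by a narrow margin. On the authors' TPM scale, which is per length and so allows genes to be compared, DR3 stood at 23.2 ± 1.18 TPM with the DR3 agonist and 22.7 ± 1.07 TPM in controls. That level was below those of TNFR2 (Tnfrsf1b, 132.9 ± 1.61 TPM with the DR3 agonist and 151 ± 3.66 TPM in controls), 4-1BB (Tnfrsf9, 488 ± 4.98 TPM with the DR3 agonist and 457 ± 9.41 TPM in controls) and OX40 (Tnfrsf4, 1034 ± 11.5 TPM with the DR3 agonist and 1015 ± 56.3 TPM in controls) in both groups. Tnfrsf1b fell with a log2 fold change of −0.19 ± 0.03 in CPM (adjusted p 8.15e-05). Tnfrsf9 was 0.11 ± 0.04 higher (adjusted p 0.0301), a call lost without control replicate 2 or 3, without DR3 agonist replicate 1 or 3, and without the libraries of high ribosomal RNA share. Tnfrsf4 showed 0.053 ± 0.04 (adjusted p 0.406).

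The gene of the ligand, Tnfsf15, was low and higher in cells given the TL1A protein. It had 2.37, 4.24 and 2.50 CPM with the DR3 agonist, against 1.58, 1.34 and 0.904 CPM in controls, with the highest value in DR3 agonist replicate 2 and no overlap. The log2 fold change was 1.24 ± 0.23 (adjusted p 0.000104). This level was not particular to TL1A. At 36 h the mean was 3.04 CPM with the DR3, 3.07 with the TNFR2, 3.46 with the 4-1BB and 2.92 with the OX40 agonist. No direct difference of the DR3 agonist from another agonist was called for Tnfsf15. Of 26 tested genes of the DR3 receptor, ligand and adaptor list, 5 rose and 2 fell, with a median of 0.023. Over all genes tested 6.97% were higher and 6.39% lower, so that the number that fell was near the share over all genes. Besides Tnfsf15, the risers were the signalling adaptor Traf1 (210.5 ± 6.95 CPM with the DR3 agonist against 160.2 ± 4.86 CPM in controls, log2 fold change 0.40 ± 0.03), the ubiquitin ligases Birc2 (70.5 ± 0.642 against 56.7 ± 1.93 CPM, 0.31 ± 0.05) and Birc3 (0.13 ± 0.04), and the linear-ubiquitin hydrolase gene Otulin (0.23 ± 0.05). The kinase gene Ripk1 (−0.13 ± 0.04) and the caspase gene Casp8 (−0.15 ± 0.04) were lower. The call of Birc3 was lost without control replicate 2 or 3 or DR3 agonist replicate 1, and that of Ripk1 without control replicate 1 or DR3 agonist replicate 1.

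The NF-kB pathway list moved mostly upwards. Of 17 tested subunits, IkB inhibitors and feedback regulators, 12 were higher and 1 lower, with a median of 0.30, beside 6.97% and 6.39% of all genes tested. Without the libraries of high ribosomal RNA share, and without DR3 agonist replicate 1 or 3 alone, 9 were higher and 1 lower. The gene of the p100 subunit of the alternative pathway, Nfkb2 (ENSMUSG00000025225, chromosome 19, 46304320 to 46312385), had 518, 518 and 510.4 CPM with the DR3 agonist and 345, 318 and 341 CPM in controls. The TL1A libraries lay close together and well above all controls, and the log2 fold change was 0.62 ± 0.03 (adjusted p 3.2e-19). Its partner Relb had 77.4 ± 3.24 CPM with the DR3 agonist and 58.2 ± 2.67 CPM in controls (0.42 ± 0.05), while the subunits of the classical pathway moved less, with Nfkb1 at 0.15 ± 0.03 and Rela at 0.16 ± 0.05; the call of Rela was lost without control replicate 2 and without DR3 agonist replicate 1 or 3.

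Inhibitors and feedback genes followed. Nfkbia, encoding IkB alpha (ENSMUSG00000021025, chromosome 12, 55489410 to 55492647), had 257, 248 and 264 CPM with the DR3 agonist, against 186, 171 and 184 CPM in controls, with no overlap and a log2 fold change of 0.51 ± 0.04 (adjusted p 2.31e-15). Nfkbie, encoding IkB epsilon, had 45.8 ± 2.78 CPM with the DR3 agonist and 31.4 ± 2.71 CPM in controls (0.55 ± 0.05), and Nfkbib, encoding IkB beta, 82.3 ± 0.218 and 65.9 ± 4.23 CPM (0.32 ± 0.04). Tnfaip3, encoding the ubiquitin-editing enzyme A20, had 160 ± 1.14 CPM with the DR3 agonist and 117 ± 3.51 CPM in controls (0.45 ± 0.04). The A20-binding proteins Tnip1, Tnip2 and Tnip3 rose by 0.33, 0.30 and 0.30 on the log2 scale, and Bcl3 by 0.18; the call of Bcl3 was lost without DR3 agonist replicate 1 or 3, and that of Tnip3 without any 1 of 5 libraries and in the DESeq2 test. Nfkbid, which encodes the nuclear IkB protein IkBNS that in mice is known to promote Foxp3 expression, was the exception. It had 88.1, 89.6 and 84.4 CPM with the DR3 agonist, against 122, 116 and 124 CPM in controls, so that the groups again did not overlap but in the other direction (−0.47 ± 0.04, adjusted p 1.84e-12).

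Of 29 tested NF-kB target genes 16 were higher and 4 lower, with a median of 0.27, beside 6.97% and 6.39% of all genes. Without the libraries of high ribosomal RNA share the numbers were 16 and 3. Cd74, the invariant chain of MHC class II, had 79.5, 75.5 and 77.3 CPM with the DR3 agonist and 45.9, 43.4 and 48.3 CPM in controls (0.76 ± 0.05, adjusted p 4.32e-17). Cd83, which stabilises MHC class II and CD86 on the surface, had 70.02, 65.4 and 67.2 CPM with the DR3 agonist and 44.01, 44.4 and 42.5 CPM in controls (0.63 ± 0.04). Icam1, the ligand of the integrin LFA-1, had 168, 171 and 161 CPM with the DR3 agonist and 115, 105 and 119 CPM in controls (0.56 ± 0.04). No library of one group reached the other group in these 3 genes. Irf5 (0.69 ± 0.05), Ebi3 (0.73 ± 0.07), Cxcl10 (0.90 ± 0.15) and Cd40 (0.92 ± 0.18) also rose. The lower members were Tnf (94.4 ± 3.62 CPM with the DR3 agonist against 116 ± 7.66 CPM in controls, −0.30 ± 0.04), Lta (−0.17 ± 0.03), Myb (−0.16 ± 0.04) and Irf4 (−0.11 ± 0.04).

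A list of 12 genes around Scin, Cacnb3 and Zbtb46 had been assembled because earlier results of these libraries showed them induced by all 4 agonists, so its direction is no independent evidence. It had 6 members higher and 2 lower (Tbc1d4 at −0.46 and Anxa3 at −0.53), with a median of 0.64. Beside this list and the marker list below, 6.97% of all genes tested were higher and 6.39% lower. Zbtb46, a transcription factor of dendritic cells, had 10.8, 11.6 and 12.3 CPM with the DR3 agonist and 6.08, 5.83 and 4.44 CPM in controls (1.08 ± 0.10). It was also the 1 of 9 tested myeloid and dendritic cell markers that passed, none of which fell. Those markers summed to 14.4 to 16.7 CPM with the DR3 agonist and 9.32 to 11.1 CPM in controls, with Tyrobp, Clec9a, Siglech, S100a8 and S100a9 at 0 in all 6 libraries and Fcgr1 at 0 with the DR3 agonist. Zbtb46 took most of that sum, and the part of such cells in its rise was not tested.

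**Figure D3:**
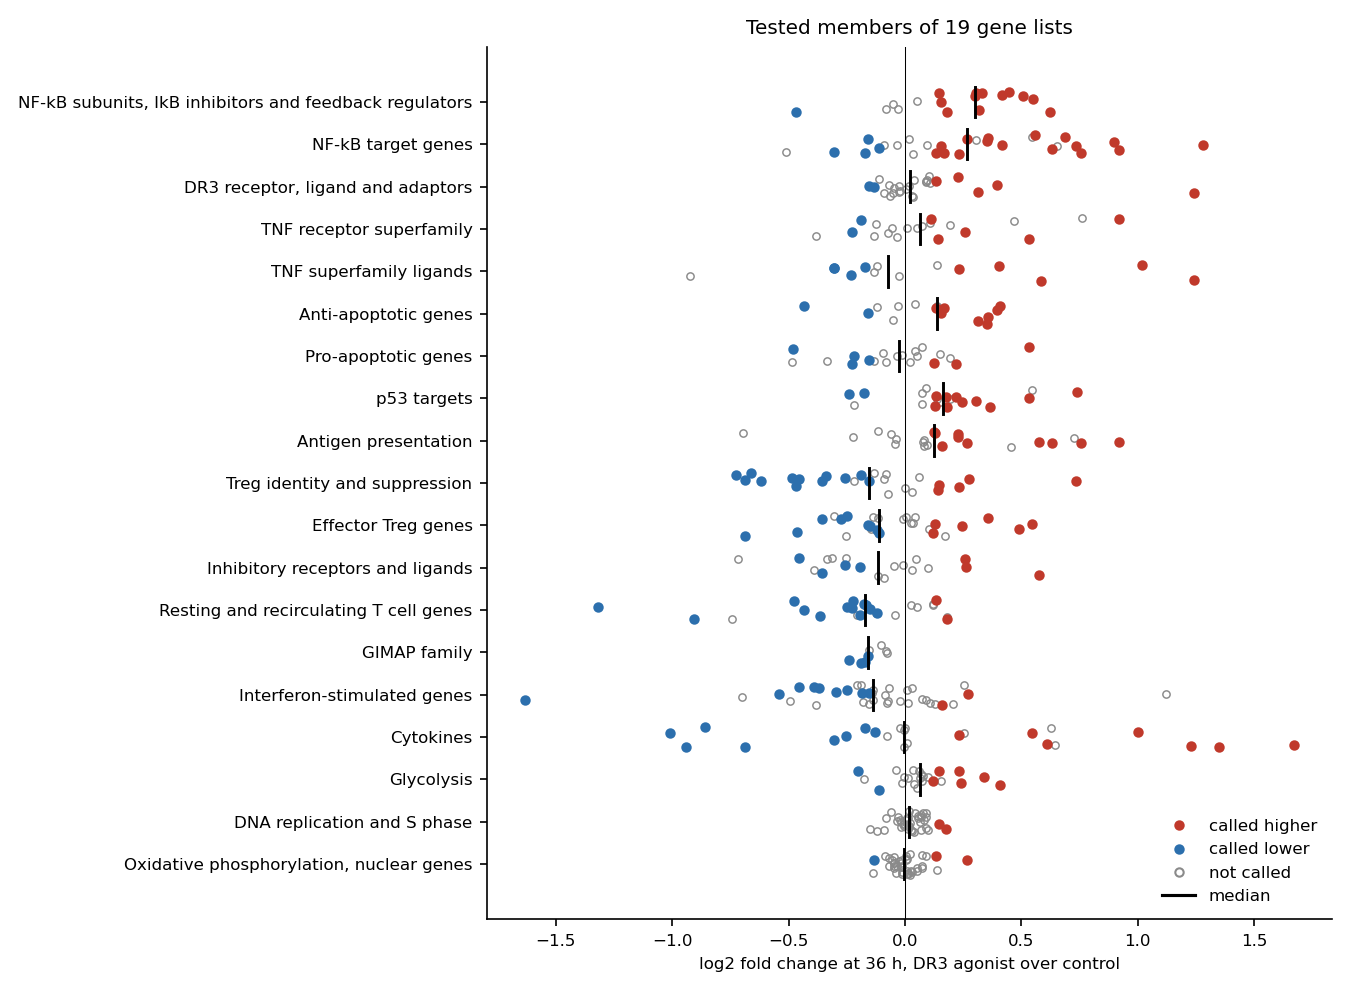
Log2 fold change at 36 h, DR3 agonist over control, of the tested members of 19 gene lists. Each point is a gene, red or blue where it was called higher or lower and open where it was not called, and the black bar is the median of the list. The medians of the 2 NF-kB lists stand at 0.30 and 0.27, those of Treg identity and of resting T cell genes at −0.15 and −0.17, and those of S phase and oxidative phosphorylation at 0.017 and −0.0041.

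Foxp3, which marks the cells, had 386, 388 and 380 CPM with the DR3 agonist and 371, 368 and 367 CPM in controls (0.061 ± 0.04, adjusted p 0.294). The library values lay close together in both groups. The genes around it did not stay level. Of 25 tested genes of Treg identity and suppression, 12 were lower and 5 higher, with a median of −0.15, and 3 were higher without control replicate 2. Over all genes tested 6.39% were lower and 6.97% higher. The members that fell include both ectoenzymes that turn ATP into adenosine. Nt5e, encoding CD73 (ENSMUSG00000032420, chromosome 9, 88327197 to 88372092), had 86.8, 81.6 and 90.2 CPM with the DR3 agonist, against 137, 138 and 134 CPM in controls (−0.66 ± 0.04, adjusted p 1.8e-17). Entpd1, encoding CD39, had 17.9, 17.6 and 18.4 CPM with the DR3 agonist and 24.4, 25.5 and 24.6 CPM in controls (−0.47 ± 0.07). The groups did not overlap for either gene.

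The receptor gene Gpr83, known as a Treg marker in mice, had 86.01, 83.6 and 82.7 CPM with the DR3 agonist, against 133, 129 and 126 CPM in controls (−0.62 ± 0.04, adjusted p 5.23e-18). Izumo1r, encoding folate receptor 4, had 179.7 ± 6.05 CPM with the DR3 agonist and 252 ± 6.30 CPM in controls (−0.49 ± 0.03). Both genes were lower in every TL1A library than in any control library. Il10, the gene of the inhibitory cytokine IL-10, had 16, 16.1 and 16.03 CPM with the DR3 agonist and 24.9, 25.8 and 26.6 CPM in controls (−0.69 ± 0.09, adjusted p 3.36e-07); Fgl2 (−0.72 ± 0.10), Vsir (−0.46 ± 0.05), Tigit (−0.35 ± 0.05), Capg (−0.34 ± 0.04), Lag3 (−0.26 ± 0.08), Socs2 (−0.19 ± 0.04) and Il2ra (−0.15 ± 0.03) were lower too. The members that rose were Ebi3, a subunit of IL-27 and IL-35 (30.1, 32.1 and 32.9 CPM with the DR3 agonist and 20.9, 16.1 and 19.96 CPM in controls), the chromatin organiser Satb1 (0.28 ± 0.05), Swap70 (0.23 ± 0.03), the transcription factor Ikzf4 (0.15 ± 0.04) and the receptor GITR (Tnfrsf18, 0.14 ± 0.04). In whole-culture RNA, fewer cells of a type and less RNA per cell cannot be told apart.

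Effector Treg genes were split, with 6 of 28 tested higher and 9 lower (6.97% and 6.39% over all genes) and a median of −0.11, and 3 higher without DR3 agonist replicate 1. Icos, the costimulatory receptor on which many effector Tregs depend, had 209, 210.2 and 218 CPM with the DR3 agonist, against 291, 301 and 285 CPM in controls (−0.46 ± 0.04, adjusted p 7.46e-13). Batf, an AP-1 factor of effector Tregs, was higher, with 67.7, 64.4 and 66.4 CPM with the DR3 agonist and 52.96, 48.7 and 53.4 CPM in controls (0.36 ± 0.05). Neither pair of groups overlapped. Rora (0.49 ± 0.08), the growth factor gene Areg (0.55 ± 0.14), the chemokine receptor gene Ccr6 (0.25 ± 0.05), Tbx21 (0.13 ± 0.04) and Gata3 (0.12 ± 0.04) were the other risers. Prdm1 (−0.25 ± 0.05), Maf (−0.28 ± 0.07), Gzmb (−0.35 ± 0.07), Bach2 (−0.12 ± 0.04) and Tcf7 (−0.15 ± 0.03) were lower beside Il10, Irf4 and Myb. Bach2 and Tcf7 are counted again among the falls of the resting and recirculating T cell genes below. Among 19 tested inhibitory receptors and ligands 3 rose (Cd80, Cd200 and Tnfrsf14) and 4 fell (Tigit, Vsir, Lag3 and Pdcd1); Cd80 had 23.7 ± 1.92 CPM with the DR3 agonist and 15.9 ± 0.464 CPM in controls (0.57 ± 0.07). The 9 tested cytotoxic genes had 2 higher, Nkg7 and the granzyme inhibitor Serpinb9 (0.41 ± 0.04), and 2 lower, Gzmb and the cathepsin gene Ctsw (−0.34 ± 0.06).

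Genes of resting and recirculating T cells were lower as a rule. Of 24 tested, 13 fell and 2 rose, with a median of −0.17, beside 6.39% and 6.97% of all genes. Without the libraries of high ribosomal RNA share 11 fell and 2 rose. Besides Klf2, described above, called falls included those of the laminin receptor gene Itga6 (97.5 ± 1.65 CPM with the DR3 agonist, 135 ± 3.58 CPM in controls, −0.47 ± 0.04), the survival gene Bcl2 (80.8 ± 5.15 against 109 ± 5.50 CPM, −0.43 ± 0.05) and the quiescence factor Foxp1 (195 ± 9.36 against 250.5 ± 12.2 CPM, −0.36 ± 0.05). Il7r (−0.25 ± 0.07), Rgs10 (−0.22 ± 0.06), Cd27 (−0.23 ± 0.05), Btg1 (−0.19 ± 0.04) and Foxo1 (−0.17 ± 0.04) fell less. Ccr7, the lymph node homing receptor, went against the list with 275, 269 and 273 CPM with the DR3 agonist and 255, 242 and 248 CPM in controls (0.13 ± 0.03). Txnip was the other riser (0.18 ± 0.04). Of 18 tested integrins and adhesion genes 5 were lower and 2 higher, Itga4 and Icam1. All 8 tested GIMAP genes, GTPases of lymphocyte survival with near-identical copies that may share reads, had fold changes below 0, but only 4 passed, led by Gimap3 (−0.24 ± 0.03) and Gimap4 (−0.19 ± 0.04).

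Cytokine genes moved in both directions, with 7 of 24 tested higher and 8 lower, beside 6.97% and 6.39% of all genes. Csf2, encoding GM-CSF (ENSMUSG00000018916, chromosome 11, 54247271 to 54249667), had 5.86, 6.56 and 6.10 CPM with the DR3 agonist, against 2.13, 2.46 and 2.59 CPM in controls, with no overlap and a log2 fold change of 1.35 ± 0.14 (adjusted p 1.38e-10). Il2 had 11.1, 10.3 and 11.4 CPM with the DR3 agonist and 6.72, 6.005 and 8.59 CPM in controls (0.61 ± 0.12, adjusted p 0.000302); the groups did not overlap. Il9 had 2.11, 2.47 and 2.22 CPM with the DR3 agonist and 0.881, 1.21 and 0.780 CPM in controls (1.23 ± 0.23), Il13 had 1.98, 2.47 and 1.22 CPM with the DR3 agonist and 1.07, 0.672 and 1.11 CPM in controls (1.00 ± 0.32, adjusted p 0.035), and Il21 stayed under 1 CPM in every library (1.67 ± 0.40). The levels of Il9, Il13 and Il21 are low, and the call of Il13 was lost without control replicate 1 or 2 or DR3 agonist replicate 1 or 2. Il1a, by contrast, had 15.8, 12.6 and 17.6 CPM with the DR3 agonist, against 26.3, 30.02 and 26.99 CPM in controls (−0.86 ± 0.12, adjusted p 2.26e-06). Il24 (−0.94 ± 0.19), Osm (−0.25 ± 0.06), Il17f (−1.01 ± 0.34) and Il16 (−0.13 ± 0.04) were lower too.

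Several of these risers are also markers of conventional helper T cells. Of 14 tested markers of that kind, 4 were higher (Il2, Il21, Tbx21 and Csf2) and Cd40lg was lower. Beside this list and the marker lists below, 6.97% of all genes tested were higher and 6.39% lower. The helper T cell markers summed to 282.7 to 283.9 CPM with the DR3 agonist and 258.3 to 274.5 CPM in controls, with none at 0. Their part in the cytokine result was not tested. None of 12 tested B cell markers passed, with sums of 272.5 to 283.5 CPM with the DR3 agonist and 275.8 to 290.5 CPM in controls, nearly all of it the immunoglobulin gene Ighm at 262.7 and 271.8 CPM; none was at 0 in every library of a group. Of 6 tested markers of NK, gamma-delta and CD8 T cells, Eomes was lower (−0.42 ± 0.07) and none was higher, the list summed to 28.6 to 29.6 CPM with the DR3 agonist and 36.6 to 37.8 CPM in controls, and Klrb1c, Ncr1 and Klra8 were at 0. Of 4 tested erythroid and platelet markers Gata1 was lower (−0.52 ± 0.11); that list summed to 5.71 to 5.76 CPM with the DR3 agonist and 7.23 to 8.72 CPM in controls, with Hba-a1, Alas2, Ppbp, Pf4 and Gp9 at 0 in all 6 libraries.

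Among 24 tested chemokines and receptors, 5 rose and 4 fell, beside 6.97% and 6.39% of all genes. Cxcr6 had 11.6 ± 1.19 CPM with the DR3 agonist and 19.6 ± 0.883 CPM in controls (−0.76 ± 0.09). Cxcl10 (5.03 ± 0.302 CPM with the DR3 agonist, 2.72 ± 0.297 CPM in controls) and Ccl20 (10.8 ± 0.927 and 7.999 ± 0.383 CPM) rose, the call of Ccl20 being lost without DR3 agonist replicate 1. Among 14 tested TNF superfamily ligands, the CD30 ligand gene Tnfsf8 had the smallest p, with 222, 216 and 224 CPM with the DR3 agonist, against 144, 148 and 149 CPM in controls (0.58 ± 0.04, adjusted p 2.69e-15); the list had 5 higher and 4 lower, and 3 higher without the libraries of high ribosomal RNA share or any 1 of 4 libraries (control replicate 2 or 3, DR3 agonist replicate 1 or 3). The 20 tested TNF receptors had 5 higher and 2 lower, and 3 higher without control replicate 2 or 3. The death receptor gene Fas led them by p, with 31.1, 29.6 and 33.8 CPM with the DR3 agonist and 22.3, 20.8 and 22.1 CPM in controls (0.53 ± 0.06, adjusted p 1.65e-09). Its groups did not overlap.

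Genes that protect from apoptosis were more often higher than lower, 8 and 2 of 15 tested, with a median of 0.14. The risers were Traf1, Birc2, Birc3, Bcl2l1 (0.16 ± 0.03), Gadd45b (0.35 ± 0.05), Serpinb9 (110.1 ± 2.28 CPM with the DR3 agonist, 83.1 ± 2.85 CPM in controls) and the near-identical copies Bcl2a1b (0.17 ± 0.05) and Bcl2a1d (0.35 ± 0.06). Bcl2 and Pim2 were lower. Of 20 tested pro-apoptotic genes, 3 rose (Fas, Bax and Apaf1) and 4 fell, among them Bcl2l11, encoding BIM, at 8.59 ± 0.434 CPM with the DR3 agonist and 11.9 ± 1.78 CPM in controls (−0.48 ± 0.09). Of 20 tested p53 targets 10 were higher and 2 lower, with a median of 0.16. Over all genes tested, beside these lists, 6.97% were higher and 6.39% lower. Phlda3, an inhibitor of AKT, had 42.6, 38.1 and 39.99 CPM with the DR3 agonist and 25.8, 20.8 and 25.9 CPM in controls (0.74 ± 0.06, adjusted p 7.15e-13), and the CDK inhibitor gene Cdkn1a 184 ± 6.88 and 143 ± 14.4 CPM (0.37 ± 0.07). Without control replicate 2 that list had 6 higher. Fas, Bax and Sesn2 stand in more than one of the lists. All 8 risers that protect from apoptosis are also counted in other lists, so they are no separate result. Bcl2l1, Bcl2a1b, Bcl2a1d and Gadd45b stand among the NF-kB target genes. Traf1, Birc2 and Birc3 stand in the DR3 list, and Serpinb9 among the cytotoxic genes.

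In antigen presentation, 10 of 22 tested genes rose and none fell, with a median of 0.13; the numbers were the same without the libraries of high ribosomal RNA share, and 8 rose without control replicate 2 or without DR3 agonist replicate 1. Besides Cd74, Cd83, Cd80 and Cd40 they were the peptide-loading genes Tap1, Tap2 and Tapbp (0.12, 0.23 and 0.27), the immunoproteasome subunit Psmb10 (0.23) and the class I genes H2-K1 and H2-D1 (0.16 and 0.13), whose near-identical copies may share reads. Cd74, Cd83, Cd40 and Tapbp are counted in the NF-kB target list as well. Interferon-stimulated genes leaned lower, with 2 of 36 tested higher and 9 lower and a median of −0.14. Over all genes tested, beside these lists, 6.97% were higher and 6.39% lower. Zbp1, a sensor of nucleic acids, had 24.7 ± 0.501 CPM with the DR3 agonist and 32.4 ± 1.05 CPM in controls (−0.39 ± 0.06), and Ifit2 26.2 ± 0.349 and 34 ± 1.93 CPM (−0.37 ± 0.07). Ly6a, encoding SCA-1, had 205 ± 6.89 CPM with the DR3 agonist and 252 ± 9.07 CPM in controls (−0.30 ± 0.04).

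Genes of T cell receptor and IL-2 signals were called in both directions, beside 6.97% higher and 6.39% lower over all genes. Of 28 tested early T cell receptor targets and AP-1 genes 8 rose, with the smallest p for Jun (81.05 ± 4.45 CPM with the DR3 agonist, 60.1 ± 3.68 CPM in controls, 0.44 ± 0.05) and Ier2 (0.41 ± 0.05), and 5 fell, with the smallest p for the calcineurin-dependent factor gene Egr3 (103 ± 2.99 and 132 ± 6.61 CPM, −0.35 ± 0.04). The number higher was 4 without control replicate 2 and 5 without DR3 agonist replicate 1. Of 24 tested genes of the IL-2 receptor and STAT5 response 7 were higher and 10 lower, and 4 were higher without control replicate 2. Ccnd2, encoding cyclin D2, had 1537 ± 21.3 CPM with the DR3 agonist and 1222 ± 21.9 CPM in controls (0.33 ± 0.04), and Xbp1 111 ± 1.02 and 135 ± 2.18 CPM (−0.28 ± 0.04).

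Lists of growth and division hardly moved at 36 h. Of 40 tested genes of DNA replication and S phase 2 rose (Pold1 at 0.15 and E2f1 at 0.17) and none fell, with every member between −0.15 and 0.18 on the log2 scale; Mcm6 stood at −0.091 (adjusted p 0.0653). Of 32 tested genes of G2 and mitosis 1 rose, Cdca8 (0.14), and none fell; that call was lost without control replicate 2 and without DR3 agonist replicate 1 or 3, that of E2f1 without control replicate 2 or DR3 agonist replicate 1 or 2, and that of Pold1 without control replicate 2 or DR3 agonist replicate 1. Kif11 and Cdc20 showed −0.092 and 0.11 (adjusted p 0.163 and 0.204). At 18 h the same 2 lists had 18 and 8 members higher and none lower, with medians of 0.14 and 0.15. Beside them, 9.66% of all genes tested were higher and 9.94% lower at 18 h. But the time difference, called in 2.31% of all genes tested, was called in none of the S phase genes. It was called in 3 of the mitosis genes (Ccna2, Top2a and Nusap1). Of 15 tested G1 genes Ccnd2, Ccnd3 (0.22) and Cdkn1a rose and Rbl1 fell, the call of Ccnd3 being lost without control replicate 2. The MYC and ribosome biogenesis list had 3 of 32 higher, among them Srm (0.17) and Rrp9 (0.15), and 2 lower, among them the MYC antagonist Mxd4 (12.9 ± 1.56 CPM with the DR3 agonist, 17.1 ± 0.579 CPM in controls, −0.41 ± 0.07). These counts are near the shares over all genes (6.97% and 6.39%), and the calls of Srm and Rrp9 were both lost without control replicate 2 or DR3 agonist replicate 1.

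Metabolic and stress lists held called genes to differing extents, beside 13.4% of all genes called, 6.97% higher and 6.39% lower. Of 23 tested glycolysis genes 6 rose, with the smallest p for the lactate exporter gene Slc16a3 (115 ± 3.98 CPM with the DR3 agonist, 91.1 ± 6.90 CPM in controls, 0.34 ± 0.05) and Hk2 (0.24 ± 0.04), and 2 fell, one of them Pdk1 (−0.20 ± 0.03). Of 21 tested hypoxia genes 3 rose and 2 fell; Adm, encoding adrenomedullin, had 6.71, 6.66 and 7.16 CPM with the DR3 agonist and 3.25, 2.87 and 2.88 CPM in controls (1.19 ± 0.13, adjusted p 5.74e-10), and the mTOR inhibitor gene Ddit4 103 ± 5.28 and 80.1 ± 3.88 CPM (0.36 ± 0.05). Nuclear genes of oxidative phosphorylation had 2 of 40 higher (Ndufa2 at 0.27 and Cyc1 at 0.14) and 1 lower (Ndufs3 at −0.13); all 3 calls were lost without DR3 agonist replicate 1. None of the 11 tested mitochondrially encoded genes passed (mt-Co3 at 1.00, adjusted p 0.0756). Cholesterol genes had none of 28 higher and 3 lower, Hmgcs1 (−0.17), Sc5d (−0.15) and the sterol exporter gene Abcg1 (−0.28). The call of Hmgcs1 was lost without control replicate 2, that of Sc5d without control replicate 1 or DR3 agonist replicate 2, and that of Abcg1 without DR3 agonist replicate 1. Of 15 tested fatty acid genes 2 rose and 4 fell, among these the desaturase gene Scd1 (26.6 ± 1.84 CPM with the DR3 agonist, 34.4 ± 4.21 CPM in controls, −0.36 ± 0.08), Acsl3 (−0.26) and Elovl6 (−0.19); the calls of Acsl3 and Elovl6 were lost without DR3 agonist replicate 1, and that of Elovl6 also without control replicate 2. The ER stress list had 6 of 29 higher, among them Sesn2 (0.30 ± 0.05), and Xbp1 lower, and of 17 chaperone genes Hsf1 rose (0.15), a call lost without any single one of 5 libraries, while Hspa8 showed −0.078 (adjusted p 0.117).

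The same contrast at 18 h, from separate libraries, called 2806 genes (19.6%), 1383 higher (9.66%) and 1423 lower (9.94%), and 1175 without the libraries of high ribosomal RNA share, which at 18 h include 2 of the 3 controls. That fit takes the spread from the other groups and assumes that the 1 control library left at 18 h varies like them. Called in the same direction at both times were 1128 genes, 59.0% of the 36 h list and 40.2% of the 18 h list, of which 572 were higher and 556 lower. Only 20 were called in opposite directions. Scin had close values at both times, with a log2 fold change of 2.24 ± 0.06 at 36 h and 2.19 ± 0.07 at 18 h (time difference 0.047 ± 0.10, adjusted p 0.898), and Nt5e likewise with −0.66 ± 0.04 and −0.67 ± 0.04. Nfkb2 stood at 0.62 ± 0.03 at 36 h and 0.72 ± 0.03 at 18 h (adjusted p of the difference 0.354).

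The effect of TL1A differed between the times for 331 genes (2.31%) in the test of the difference itself, 174 with a higher (1.22%) and 157 with a lower value (1.1%) at 36 h. The balance turned in other settings, with 153 and 175 under RLE scaling and 149 and 196 in DESeq2. Without the libraries of high ribosomal RNA share the count was 63 (23 and 40), but that fit rests on 1 control library at 18 h. Igfbp4 fell further at the later time, with a log2 fold change of −1.33 ± 0.07 at 36 h and −0.50 ± 0.06 at 18 h (difference −0.83 ± 0.09, adjusted p 2.48e-08). Cacnb3, a calcium channel subunit, was higher at both times but less so at 36 h, with 0.85 ± 0.10 at 36 h and 2.13 ± 0.10 at 18 h (adjusted p of the difference 4.65e-08). Eomes, a T-box factor of cytotoxic and memory T cells, turned direction. It had 20.98 ± 0.283 CPM with the DR3 agonist and 27.99 ± 1.15 CPM in controls at 36 h, and 11.2 ± 1.10 CPM with the DR3 agonist and 5.56 ± 0.0289 CPM in controls at 18 h. The log2 fold changes were −0.42 ± 0.07 and 1.00 ± 0.11, and the adjusted p of the difference was 9.44e-11. Txnip and Gbp2 also passed at both times in opposite directions, with 0.18 ± 0.04 and −0.18 ± 0.04 at 36 h and −0.45 ± 0.05 and 0.34 ± 0.04 at 18 h.

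Il9 showed the same direction with a smaller size at 36 h, 1.23 ± 0.23 against 4.28 ± 0.28 at 18 h (adjusted p of the difference 1.56e-06). Among the NF-kB target genes 9 of 29 differed between the times, beside 2.31% of all genes tested. They included Icam1 (0.56 ± 0.04 at 36 h, 0.89 ± 0.04 at 18 h, adjusted p of the difference 3.67e-05) and Lta, which was lower at 36 h (−0.17 ± 0.03) and higher at 18 h (0.13 ± 0.03). Ly75, Thy1 and Ncf1 were higher at both times and less so at 36 h, and Slc35b4 was higher at 18 h (0.55 ± 0.04) with 0.031 ± 0.04 at 36 h (adjusted p 0.657). Sp6 was the largest of the named genes whose rise was greater at 36 h, with 1.41 ± 0.10 at 36 h and 0.55 ± 0.09 at 18 h.

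**Figure D4:**
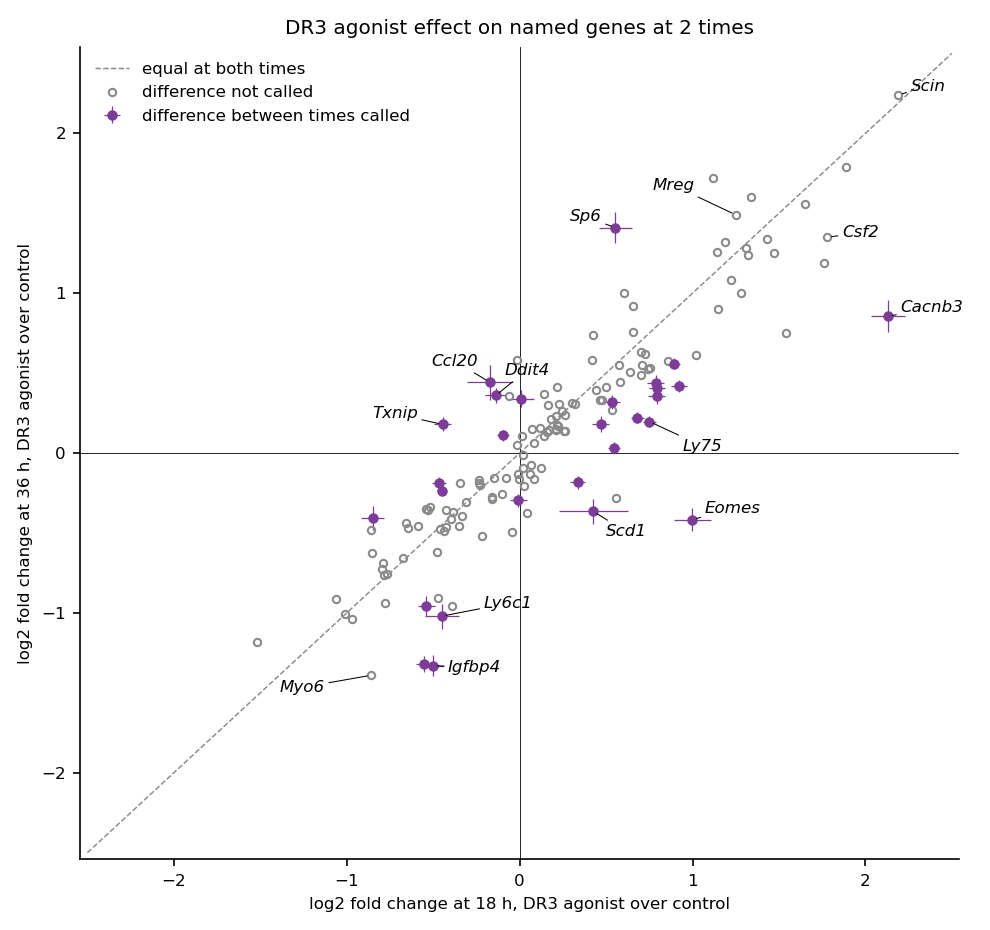
Log2 fold change of the DR3 agonist over its own control at 36 h (vertical) against 18 h (horizontal) for the 146 named genes with at least 1 CPM in a 36 h group. Filled points with standard errors are the 28 genes whose difference between times was called, open points the others, and the dashed line marks equal values. Most points lie near the line, with Igfbp4 below it, Cacnb3 far to the right and Eomes on the lower right, higher at 18 h and lower at 36 h.

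How TL1A compares with the other agonists was tested directly between agonist libraries at 36 h, without the controls. Doses were not matched: TL1A and the TNFR2 agonist STAR2 were both given at 12 ng/ml, the 4-1BB antibody 3H3 at 10 µg/ml and OX40L at 100 ng/ml. Equal mass does not show equal activity, and all 3 contrasts share the DR3 agonist libraries. The DR3 agonist differed from the TNFR2 agonist in 509 genes (3.56%), 179 higher (1.25%) and 330 lower (2.31%), from the 4-1BB agonist in 777 (5.43%), 398 higher (2.78%) and 379 lower (2.65%), and from the OX40 agonist in 244 (1.7%), 82 higher (0.573%) and 162 lower (1.13%). Without the libraries of high ribosomal RNA share, which include 1 TNFR2 and 1 OX40 agonist library at 36 h, the counts were 190, 514 and 83.

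Several NF-kB genes were higher with the TNFR2 and 4-1BB agonists than with TL1A. Nfkb2 stood at 515 ± 4.32 CPM with the DR3 agonist, 623 ± 5.08 with the TNFR2 agonist, 637 ± 26.6 with the 4-1BB agonist and 564 ± 23.4 with the OX40 agonist, against 335 ± 14.7 CPM in controls. The log2 difference of DR3 from TNFR2 agonist was −0.27 ± 0.03 (adjusted p 1.86e-07), from 4-1BB agonist −0.31 ± 0.03 (adjusted p 3.69e-09) and from OX40 agonist −0.13 ± 0.03 (adjusted p 0.0308). Scin was also higher with the TNFR2 and 4-1BB agonists, but its difference from the OX40 agonist did not pass the test. It had 66.6 ± 1.02 CPM with the DR3 agonist, 117 ± 4.28 with the TNFR2 agonist, 141 ± 0.879 with the 4-1BB agonist and 61.6 ± 2.82 with the OX40 agonist. Its differences were −0.81 ± 0.05 from TNFR2, −1.08 ± 0.05 from 4-1BB and 0.12 ± 0.05 from OX40 agonist libraries (adjusted p 7.08e-16, 5.38e-21 and 0.465). Mreg was lower with the DR3 than with the TNFR2 agonist (−0.78 ± 0.07, adjusted p 5.85e-11), as was the chemokine receptor gene Cxcr4 (−0.73 ± 0.08).

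Il2 set TL1A apart from the TNFR2 and 4-1BB agonists. It had 10.9 ± 0.575 CPM with the DR3 agonist, 6.29 ± 1.06 with the TNFR2 agonist, 6.24 ± 0.606 with the 4-1BB agonist and 12.04 ± 1.32 with the OX40 agonist, against 7.11 ± 1.33 CPM in controls. The differences were 0.80 ± 0.13 from the TNFR2 agonist (adjusted p 4.28e-05), 0.81 ± 0.13 from the 4-1BB agonist (adjusted p 1.26e-05) and −0.12 ± 0.12 from the OX40 agonist (adjusted p 0.834). Ccl20, the ligand of CCR6, had 10.8 ± 0.927 CPM with the DR3 agonist and was higher there than with the TNFR2 agonist (6.76 ± 0.292 CPM, 0.68 ± 0.12), the 4-1BB agonist (6.35 ± 0.0934 CPM, 0.77 ± 0.12) and the OX40 agonist (7.25 ± 0.920 CPM, 0.55 ± 0.11). Wnt10a, a WNT ligand gene, had 5.17 ± 0.482 CPM with the DR3 agonist, 2.81 ± 0.244 with the 4-1BB agonist and 2.29 ± 0.258 with the OX40 agonist, with differences of 0.89 ± 0.15 and 1.22 ± 0.16. Its rise over controls was lost without control replicate 2, without DR3 agonist replicate 1 and without the libraries of high ribosomal RNA share.

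Other genes were higher with another agonist. Csf2 had 6.17 ± 0.355 CPM with the DR3 agonist and 12.96 ± 0.749 CPM with the 4-1BB agonist, a difference of −1.08 ± 0.11 (adjusted p 2.23e-10), and Cacnb3 8.44 ± 0.108 and 22.3 ± 1.84 CPM (−1.40 ± 0.08). Ankrd33b had 2.23 ± 0.180 CPM with the DR3 agonist and 8.90 ± 1.23 CPM with the 4-1BB agonist (−1.99 ± 0.16), and Il13 1.89 ± 0.627 and 5.80 ± 0.550 CPM (−1.60 ± 0.25). Idi2, a gene of isoprenoid synthesis, had 5.55 ± 0.489 CPM with the DR3 agonist, 15.1 ± 0.689 with the 4-1BB agonist and 11.04 ± 1.15 with the OX40 agonist (−1.43 ± 0.10 and −0.97 ± 0.10). Gzmb, encoding granzyme B, was lower with TL1A than with all 3 others, at 31.5 ± 1.15 CPM with the DR3 agonist, 41.2 ± 1.37 with the TNFR2 agonist, 43.03 ± 2.23 with the 4-1BB agonist and 47.7 ± 3.05 with the OX40 agonist (adjusted p 0.000109, 2.37e-06 and 6.82e-09).

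From the OX40 agonist TL1A differed least in number. Tgm2, encoding transglutaminase 2, had 4.67 ± 0.189 CPM with the DR3 agonist and 10.04 ± 0.289 CPM with the OX40 agonist (−1.10 ± 0.14, adjusted p 1.54e-07), the fibronectin gene Fn1 2.76 ± 0.239 and 5.67 ± 0.772 CPM (−1.01 ± 0.16) and Igsf3 3.36 ± 0.229 and 6.94 ± 0.553 CPM (−1.02 ± 0.12). Fam129c (0.55 ± 0.13) and the Hippo pathway factor Tead1 (0.55 ± 0.08) were higher with TL1A than with the OX40 agonist. Tead1 was not higher than in controls, with 23.4 CPM with the DR3 agonist, 16.3 with the OX40 agonist and 27.01 in controls. Fgl2, which TL1A lowered, was lower still with the 4-1BB agonist, at 7.31 ± 0.629 CPM with the DR3 agonist and 4.13 ± 0.484 with the 4-1BB agonist (0.82 ± 0.12). Itih5 differed by 0.57 ± 0.07 from the TNFR2 agonist and Rassf8 by 0.86 ± 0.14 from the 4-1BB agonist. TL1A lowered both genes against controls, and less than those agonists did. Itih5 had 30.5 CPM with the DR3 agonist, 20.5 with the TNFR2 agonist and 47.1 in controls. Rassf8 had 5.32 CPM with the DR3 agonist, 2.92 with the 4-1BB agonist and 7.09 in controls. Tigit had 43.1 ± 1.89 CPM with the DR3 agonist, 34.5 ± 0.256 with the TNFR2 agonist and 28.4 ± 0.466 with the 4-1BB agonist (adjusted p 2.05e-05 and 2.22e-12); its difference from the OX40 agonist was −0.017 ± 0.05 (adjusted p 0.974). Fn1 and Igsf3 overlapped between the DR3 agonist and control libraries. Igsf3 had 3.40 CPM in controls, 5.53 with the TNFR2 agonist and 5.67 with the 4-1BB agonist. It was thus lower with TL1A than with those agonists too (−0.71 ± 0.13 and −0.75 ± 0.13).

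**Figure D5:**
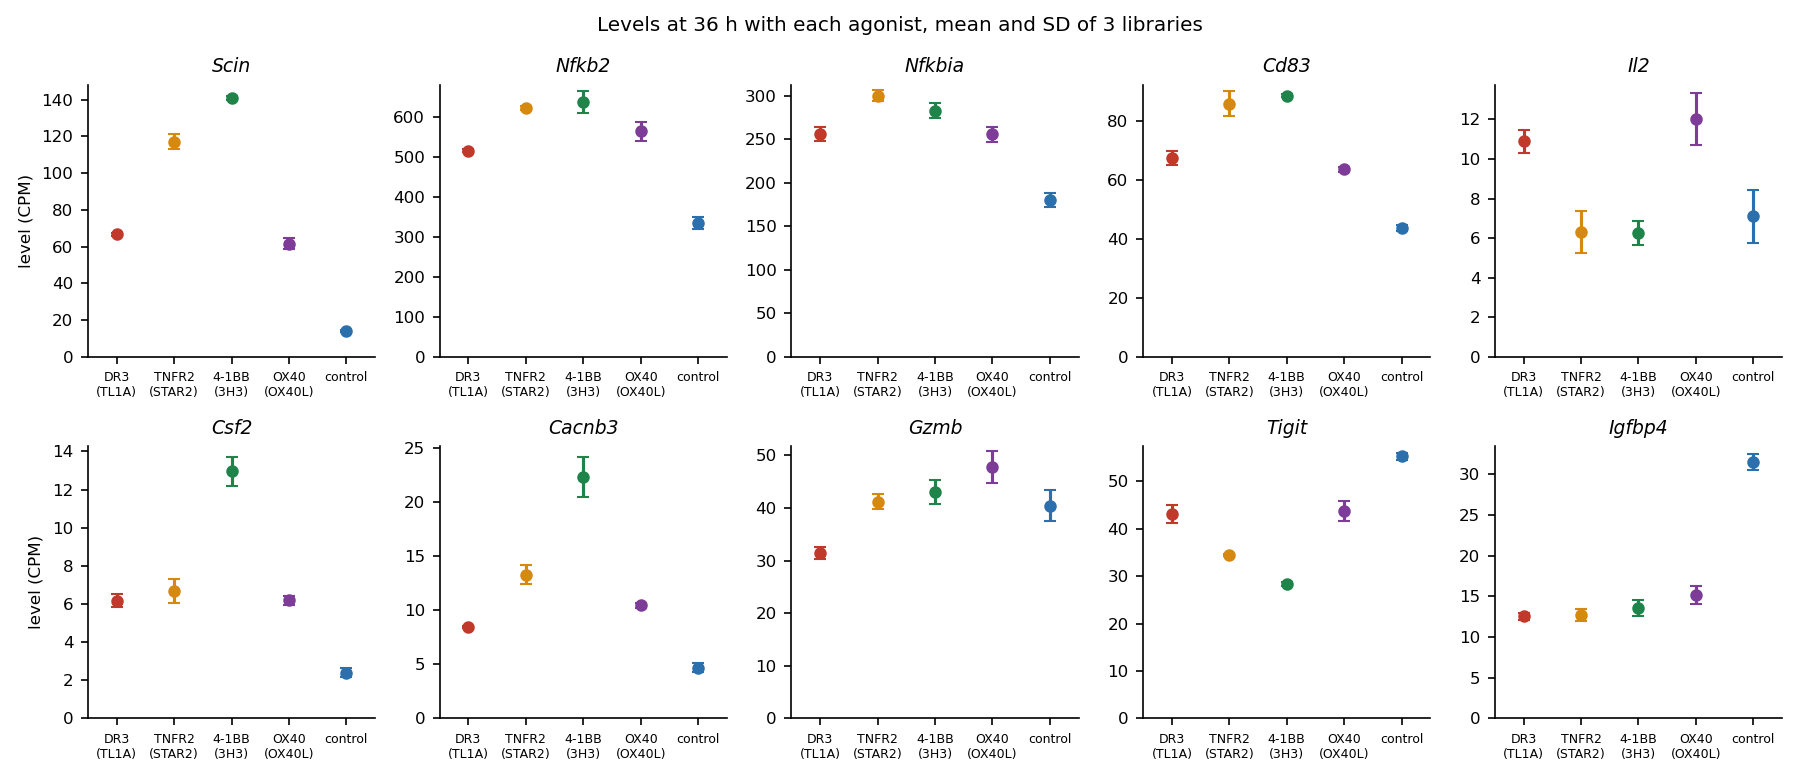
Levels in CPM at 36 h of 10 genes with the DR3, TNFR2, 4-1BB and OX40 agonists and in controls, as mean and SD of 3 libraries, with each axis starting at 0 and doses not matched. Scin, Nfkb2, Nfkbia and Cd83 are lower with the DR3 than with the TNFR2 and 4-1BB agonists, Il2 is higher, and Igfbp4 lies at 12.6 CPM with the DR3 agonist and 31.5 CPM in controls.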

How the data were processed

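RNA of the 32 samples was made into libraries with a SMART-Seq v4 kit, per the labels' protocols. STAR 2.5.3a, RSEM 1.2.28, Trimmomatic, FastQC and the build mm10 are listed, per the submitters' processing notes. The authors deposited an expected count, a TPM and an FPKM per gene and library; FPKM was not used, and TPM served only to compare receptor genes. Neither annotation release nor counting strand is given in the sources used here. Of 54087 genes in the tables, 53973 were matched by transcript to names of GENCODE M21.

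Expected counts were rounded, filtered with filterByExpr by group, scaled by TMM and fitted in edgeR 4.0.16 (R 4.3.3, limma 3.58.1) by quasi-likelihood with the robust option, over all 32 libraries with 1 mean per group and no covariate. Benjamini-Hochberg adjustment ran over 14313 genes, called below an adjusted p of 0.05. Library totals were 11880270 to 38083925. The common dispersion was 0.00162, a biological coefficient of variation of 4.02%. The script was tested on simulated data, in which it recovered 38 of 50 genes changed 1.25-fold and 48 of 50 changed 2-fold. Of 189 genes called there, 13 (6.88%) had not been changed. Alternatives were RLE scaling, DESeq2 1.42.0, other filters, the groups of the contrast alone, a replicate block, the ribosomal RNA share as a covariate, each library left out and, chosen after seeing the data, libraries over 10000 CPM at that locus left out. Figures were drawn with Python 3.11.15, pandas 2.3.3 and matplotlib 3.10.9.

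The comparison, gene lists and alternatives were chosen with earlier results of these data known. Named genes were the 12 largest rises and 12 largest falls of at least 5 CPM with no overlap, the 3 smallest p of each list, the receptors and Foxp3, the 10 smallest p of the time difference, 4 in each direction for each other agonist, and called members of the DR3 and NF-kB lists. Predicted genes, clones, Riken cDNAs and pseudogenes were left out of the largest changes. Other list members were named after their values were seen. Some genes that met the rule are not reported here.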

Additional observations from a re-analysis of the deposited data

Results flagged for a closer look

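The effect of the DR3 agonist over control differed between 36 h and 18 h, by the test of the difference in edgeR's quasi-likelihood fit, for 331 genes, 28 of which met the rule for named genes. Values are the log2 fold change at 36 h minus that at 18 h. Of the 28, 17 were called without the libraries of high ribosomal RNA share, a fit that keeps 1 control library at 18 h and takes its spread from the other groups, 25 with the replicate block, 27 in DESeq2 and 22 to 27 when 1 library was left out. Those not called in that fit with 1 control library at 18 h were Bcl3, Ccl20, Gimap3, Gimap4, Jun, Ly6c1, Mxd4, Nfkbib, Scd1, Slc16a3 and Tnfrsf9.

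Genes lower at 36 h relative to 18 h included Eomes (−1.42), Cacnb3 (−1.28), Igfbp4 (−0.834), Scd1 (−0.791), Ly6c1 (−0.575), Ly75 (−0.554), Gbp2 (−0.518), Slc35b4 (−0.514), Ncf1 (−0.499), Thy1 (−0.458), Batf (−0.434), Trib2 (−0.418), Serpinb9 (−0.388), Jun (−0.352), Icam1 (−0.332), Ly6a (−0.289), Bcl3 (−0.285) and Nfkbib (−0.218). Genes higher at 36 h relative to 18 h were Sp6 (0.857), Txnip (0.623), Ccl20 (0.613), Ddit4 (0.498), Mxd4 (0.445), Slc16a3 (0.333), Gimap4 (0.277), Gimap3 (0.21) and Tnfrsf9 (0.208).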

How the results depend on the processing

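No called value of a named gene changed sign in any alternative run. The balance of higher and lower calls turned in several, among them these: at 36 h 997 and 915 became 882 and 1010 without a filter and 579 and 635 without control replicate 2, at 18 h 1383 and 1423 became 1530 and 1337 with RLE scaling and 1432 and 1159 in DESeq2, and for the time difference 174 and 157 became 153 and 175 with RLE scaling, 149 and 196 in DESeq2, 129 and 138 with the ribosomal RNA share as a covariate, and 23 and 40 without the libraries of high ribosomal RNA share. Against the 4-1BB agonist 398 and 379 became 257 and 323 without 4-1BB agonist replicate 1 and 246 and 288 without DR3 agonist replicate 1. The 1912 genes called at 36 h became 1904 with RLE scaling, 1707 in DESeq2, 1695 with the ribosomal RNA share as a covariate, 2187 with only the groups of the contrast, 1892 without a filter and 1214 to 1799 when 1 library was left out. Genes at 2-fold or more, 127, became 32 under a filter of at least 10 CPM in 3 libraries, which tests fewer low genes, and 95 to 134 when 1 library was left out. Without the libraries over 10000 CPM at the ribosomal RNA locus the counts were 1175 at 18 h, 63 for the time difference, and 190, 514 and 83 against the TNFR2, 4-1BB and OX40 agonists; fewer libraries enter those fits, 1 control library at 18 h among them, which is assumed to vary like the other groups. With only the groups of the contrast, 873 and 1214 genes differed from the TNFR2 and 4-1BB agonists; the cause was not tested. Leaving out 1 library gave 2148 to 2526 at 18 h, 196 to 334 for the time difference (196 without DR3 agonist 18 h replicate 1, 202 without control 18 h replicate 1, 207 without DR3 agonist 36 h replicate 2), and 265 to 504, 534 to 598 and 127 to 249 against the TNFR2, 4-1BB and OX40 agonists. Same-numbered libraries of the 36 h groups deviated with correlations of 0.0153, −0.00847 and −0.0709, and unlike-numbered ones with −0.0918 to 0.111. Such values over all tested genes cannot show whether same-numbered samples shared a mouse or batch, and the labels do not say. The replicate block gave 1900 genes at 36 h, 2740 at 18 h, 292 for the time difference, and 485, 772 and 231 against the TNFR2, 4-1BB and OX40 agonists. Of 128 named genes called, 111 passed with control replicate 2 left out and 106 with DR3 agonist replicate 1 left out. Counts of list members moved by over 1.5 times in 80 comparisons with 1 library left out and kept within it in 388, and the moves of counts of at least 5 stand beside them in the report. Small changes of genes under 5 CPM are limited by depth.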
